A study of Mus musculus with 9 samples.

Results

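Cholesterol synthesis was followed through 7 genes, Hmgcs1, Sqle, Fdft1, Insig1, Idi1, Lss and Srebf2, which were taken by symbol from the 31053 genes listed in the count files. They were described in astrocytes, oligodendrocytes, excitatory neurons and inhibitory neurons of the mouse brain. Nuclei sorted from the pooled cortex and hippocampus of 9 male C57BL/6 mice were sequenced with a 10x Genomics kit that reads 3′ ends, 1 library per mouse, and each RNA molecule was counted once by its unique molecular identifier (UMI). Young AAV-EGFP mice were 5 months old, and aged AAV-EGFP and aged AAV-B3GNT3 mice were 19 months old, with 3 mice in each group. All mice had received an adeno-associated virus (AAV) retro-orbitally, 8 weeks before their brains were collected. It encoded the fluorescent control protein EGFP, or EGFP together with B3GNT3, a glycosyltransferase that lengthens O-linked glycans of mucins. The capsid was PHP.V1 and the promoter a short form of the CLDN5 promoter, so that the transgene was meant for brain endothelial cells and not for the 4 cell classes described here. A young group with AAV-B3GNT3 was not analysed here, and an effect of AAV itself cannot be estimated because every mouse received it. According to the paper, aged mice came from the colony of the National Institute on Aging and young mice from Jackson Laboratories. Age therefore cannot be told apart from supplier here.

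Cells build cholesterol from acetyl-CoA through the mevalonate pathway, and the brain makes its own because cholesterol hardly crosses the blood–brain barrier. Srebf2 encodes SREBP-2, a membrane-bound transcription factor that is carried to the Golgi and cut when sterols are low, and then switches on the enzyme genes. INSIG1 holds the SREBP complex in the endoplasmic reticulum when sterols are high and is itself a target of SREBP. In the adult brain, astrocytes supply neurons with cholesterol in lipoproteins, while oligodendrocytes use it for myelin.

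The 5 enzymes act in a fixed order. HMGCS1 joins acetyl-CoA units into HMG-CoA, IDI1 interconverts the C-5 isoprenoid building blocks, FDFT1 makes squalene, SQLE oxidises squalene to its epoxide, and LSS closes that epoxide into lanosterol. All 7 genes are protein-coding in the GENCODE vM21 annotation of GRCm38. Srebf2 lies at chr15:82147181-82205379 and Insig1 at chr5:28071363-28078662. Hmgcs1 lies at chr13:119690379-119708260 and Idi1 at chr13:8885501-8892451. Sqle lies at chr15:59315077-59331192, Lss at chr10:76531588-76557138 and Fdft1 at chr14:63145150-63179578. Fdft1 is on the minus strand and the other 6 are on the plus strand. Fdft1 overlaps Ctsb, Hmgcs1 overlaps Gm48342 and Lss overlaps 4930483K19Rik, each on the opposite strand. Srebf2 overlaps Gm49502 and Mir33 on its own strand and Idi1 overlaps Gm48574 on the opposite strand, all of them absent from the genes counted.

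Promoter sequence bears on these genes because SREBP-2 binds sterol regulatory elements, often near a CCAAT box. RefSeq promoters of GRCm38.p6 were given for 5 of the 7 genes, and those of Sqle and Fdft1 were not analysed here. Both strands of the 250 bases before each start were searched for TCACCCCA, the core of a sterol regulatory element, for the looser TCACNCCA, and for CCAAT. Each TCACCCCA also matches TCACNCCA. TCACCCCA was found in Hmgcs1, beginning 137 bases before the start, and in Srebf2, beginning 162 bases before it. The same letters occur in 441 of 32851 promoters (1.34%), and TCACNCCA in 1207 (3.67%). The search found neither in Idi1, Insig1 or Lss. CCAAT, which 33.8% of promoters hold, was found in all 5, with 3 matches in Hmgcs1, 2 in Idi1 and 1 each in Insig1, Lss and Srebf2. The windows below show the element of the synthase gene and of the regulator gene, and the CCAAT box of Lss and Insig1, with the matched letters in capitals. CCAAT lies on the opposite strand in both and therefore reads ATTGG. The windows are chr13:119690203-119690232, chr15:82147096-82147125, chr10:76531532-76531558 and chr5:28071185-28071211, all on the plus strand.
Hmgcs1: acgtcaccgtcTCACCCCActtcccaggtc
Srebf2: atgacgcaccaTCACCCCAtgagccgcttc
Lss: gtgatgctctgATTGGccgagctcgca
Insig1: gccctcctcccATTGGctccggcggcc

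The libraries held 47332047 to 79964605 UMIs, and 70396 of 77823 barcodes were kept as nuclei. Of these, 8480 were astrocytes, 20302 oligodendrocytes, 20486 excitatory neurons and 8033 inhibitory neurons, with 600 to 1431 astrocytes per mouse. Each library's nuclei were summed by class, which gave 1867068 to 4522466 UMIs per mouse in astrocytes. A total of 734 of 77081 distinct barcodes occurred in more than 1 library. The 7 astrocyte markers summed to between 12724 and 19042 CPM, that is UMIs scaled to a common library total, in astrocytes and to between 301 and 786 CPM in oligodendrocytes, and the 7 oligodendrocyte markers to between 13435 and 17741 CPM in oligodendrocytes and to between 265 and 611 CPM in astrocytes. A cluster counted with the inhibitory neurons was led by genes known from the striatum, including Drd2, Rgs9 and Adora2a. B3gnt3 itself had 11, 11 and 16 UMIs among all barcodes of the aged AAV-B3GNT3 libraries, against 5 to 14 in aged AAV-EGFP and 6 to 17 in young AAV-EGFP, and it was not determined whether transcripts of the viral transgene enter this count.

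Astrocytes had the highest level of each of the 7 genes in each of the 9 mice among the 4 classes, on totals per class without further scaling. Hmgcs1 averaged 151 ± 63.0 CPM (SD, n = 9 mice) in astrocytes, against 40.2 ± 4.63 in oligodendrocytes, 32.4 ± 7.42 in excitatory neurons and 23.5 ± 5.36 in inhibitory neurons. Idi1 was lower in the same order, at 31.0 ± 11.96, 9.17 ± 1.41, 4.22 ± 1.26 and 3.90 ± 1.49 CPM. The neuron classes lay within their spread for Idi1, where excitatory neurons were higher in 6 of 9 mice. For Hmgcs1 excitatory neurons were above inhibitory neurons in 9 of 9 mice, and oligodendrocytes above excitatory neurons in 8 of 9. Lss, the cyclase, was at 31.2 ± 17.1 CPM in astrocytes, and it was at 11.7 ± 2.998 in oligodendrocytes, 11.4 ± 3.04 in excitatory neurons and 9.53 ± 2.10 in inhibitory neurons. Within a mouse, Lss was higher in excitatory than in inhibitory neurons in 9 of 9 mice and higher in oligodendrocytes than in excitatory neurons in 6 of 9.

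Srebf2 varied least between classes, from 167 ± 18.6 CPM in astrocytes through 116 ± 12.6 in oligodendrocytes and 79.3 ± 13.3 in excitatory neurons to 56.9 ± 8.58 in inhibitory neurons. Its astrocyte level was 1.24 to 1.75 times that of oligodendrocytes of the same mouse, whereas for Idi1 this ratio ran from 1.53 to 7.15. Insig1 was higher in astrocytes and oligodendrocytes than in the neuron classes, with 84.3 ± 31.1 CPM in astrocytes and 43.3 ± 3.83 in oligodendrocytes against 9.90 ± 3.86 and 9.18 ± 2.89 in excitatory and inhibitory neurons. Its range in oligodendrocyte precursors (7.996 to 39.8 CPM) and in microglia (4.48 to 21.4 CPM) overlapped that in excitatory neurons (5.06 to 16.6 CPM). Among the smaller classes, the 7 genes summed to a median of 392 CPM in pericytes (163 to 685), 241 CPM in brain endothelial cells (194 to 322), 135 CPM in oligodendrocyte precursors (120.1 to 261) and 130 CPM in microglia (87.3 to 167). The same sum was 579 CPM in astrocytes (428 to 1009) and 301 CPM in oligodendrocytes (247 to 326). Pericytes and endothelial cells had 784 and 432 UMIs of the 7 genes in all mice together, so their values carry a wide counting error.

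Per kb of exonic sequence, the order of the genes in astrocytes was Fdft1 with a level of 33.1 ± 10.2 CPM per kb, Hmgcs1 with 32.9 ± 13.7, Insig1 with 27.3 ± 10.1, Srebf2 with 23.3 ± 2.59, Idi1 with 8.86 ± 3.41, Sqle with 8.57 ± 3.32 and Lss with 2.89 ± 1.59. The means of the first 4 lay within their spread over all mice, as did those of Idi1 and Sqle. In oligodendrocytes Srebf2 led with 16.2 ± 1.76 CPM per kb, before Insig1 with 14.0 ± 1.24 and Fdft1 with 12.6 ± 1.54, which lay within their spread. These SDs pool the groups and so include the differences between them. The order of the genes within each mouse or group was not compared, so a fixed order within mice may still exist. Reads of this chemistry come from the 3′ end, so division by length is a convention here.

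**Figure D1:**
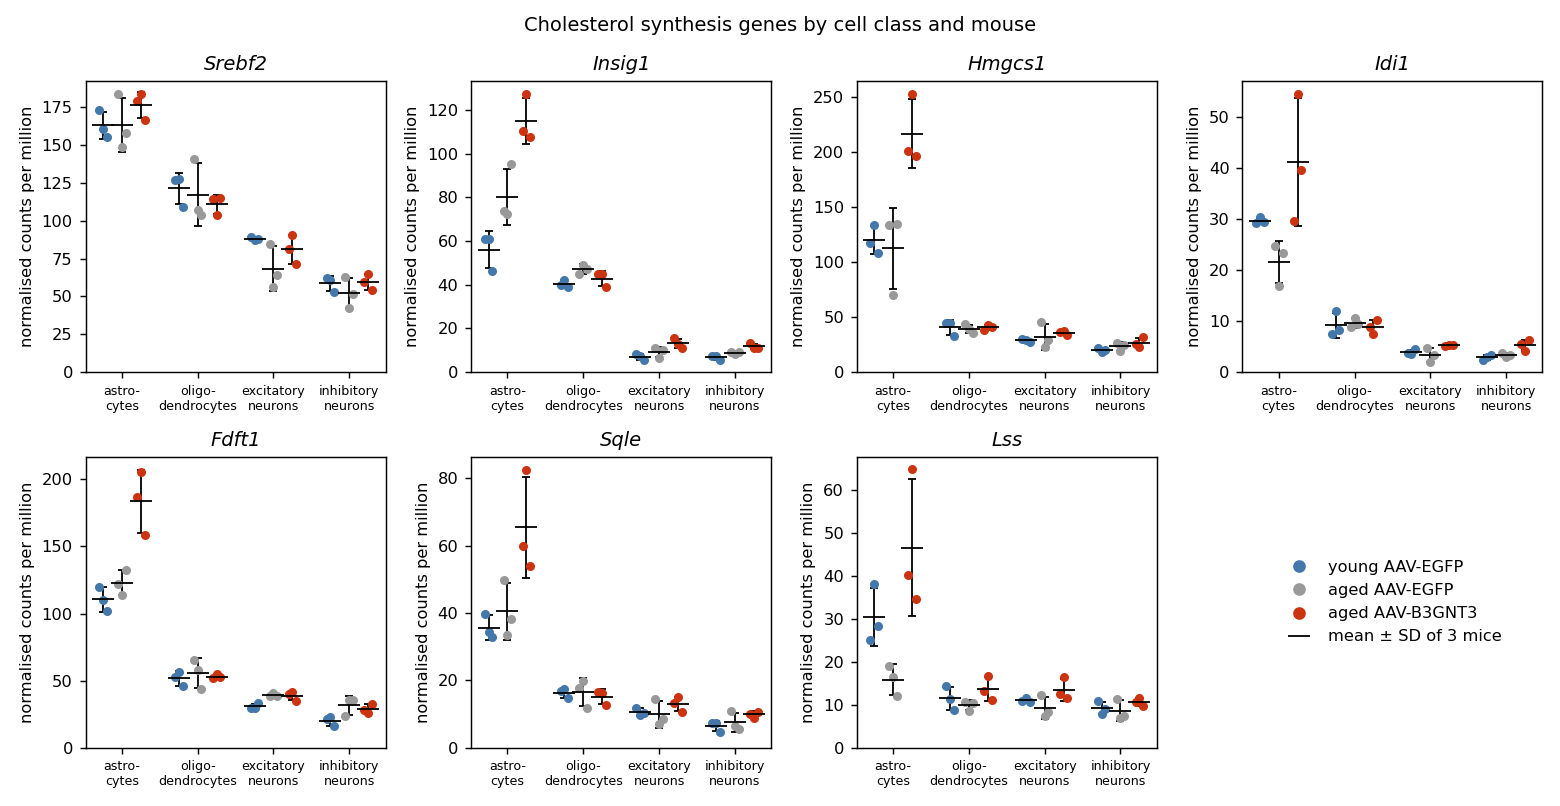
Level of each of the 7 genes, as TMM-scaled CPM on linear axes from 0, in 4 cell classes. Points are mice, coloured by group, and black marks are the mean ± SD of 3 mice. In astrocytes the aged AAV-B3GNT3 points lie above the other points for Insig1, Hmgcs1, Fdft1 and Sqle, while those of Srebf2 overlap.

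The comparison of aged AAV-B3GNT3 with aged AAV-EGFP asked what the enzyme changed in the old brain. In astrocytes 4 of the 7 genes rose with AAV-B3GNT3 and 0 fell, where 440 of 12716 genes tested (3.46%) passed in either direction and 1.2% rose. The genes that rose were the enzymes Hmgcs1, Idi1, Fdft1 and Lss, by 1.49- to 3.002-fold. The 7 genes and the lists used below were chosen with earlier results of these data known. Their counts beside the share of all genes are therefore a description and not an independent test. Tests were edgeR's quasi-likelihood test on summed counts with Benjamini-Hochberg adjustment over all genes tested in a class and an adjusted p of 0.05 as the threshold, and p-values measure the spread between mice. DESeq2 called 5 of the 7, the same 4 and Sqle, where it called 556 of 13313 genes and 202 of them were higher. Values below are CPM scaled by the trimmed mean of M-values (TMM), given for replicates 1, 2 and 3 of each group.

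Lss, which makes lanosterol, had the largest log2 fold change of the 7. It stood at 19.1, 16.4 and 12.1 CPM in aged AAV-EGFP astrocytes and at 40.2, 64.8 and 34.7 CPM in aged AAV-B3GNT3 astrocytes. Each mouse with AAV-B3GNT3 was above each aged AAV-EGFP mouse, and replicate 2 was the highest. The log2 fold change was 1.59 (SE 0.27, edgeR adjusted p = 0.0137), a 3.002-fold rise that rested on 29 to 34 UMIs per mouse in aged AAV-EGFP and 84 to 259 in aged AAV-B3GNT3.

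Hmgcs1, at the head of the pathway, stood at 134, 70.2 and 134 CPM in aged AAV-EGFP and at 201, 253 and 196 CPM in aged AAV-B3GNT3 astrocytes. Replicate 2 was the lowest of the aged AAV-EGFP mice and replicate 2 the highest of the AAV-B3GNT3 mice, and the groups did not overlap. The log2 fold change was 0.94 (SE 0.21, edgeR adjusted p = 0.0281). Idi1 stood at 24.7, 16.9 and 23.4 CPM against 29.6, 54.5 and 39.6 CPM, again without overlap, with a log2 fold change of 0.94 (SE 0.23, edgeR adjusted p = 0.0366). Fdft1, the branch point at which isoprenoids are committed to sterols, stood at 122, 114 and 133 CPM against 187, 205 and 159 CPM. These groups did not overlap either, and Fdft1 rose by a log2 fold change of 0.58 (SE 0.14, edgeR adjusted p = 0.0354).

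Sqle, a rate-limiting oxygenase of the pathway, did not pass the threshold. Its CPM were 49.9, 33.4 and 38.4 in aged AAV-EGFP and 59.9, 82.6 and 54.1 in aged AAV-B3GNT3, and its log2 fold change was 0.71 (95% confidence interval 0.29 to 1.12, edgeR adjusted p = 0.0569). Insig1, the retention protein, was at 73.5, 72.2 and 95.1 CPM against 110.4, 127 and 107 CPM, with a log2 fold change of 0.52 (0.18 to 0.85, edgeR adjusted p = 0.0782). The groups of both genes did not overlap, so that 6 of the 7 genes were higher in each AAV-B3GNT3 mouse than in each aged AAV-EGFP mouse, against 11.0% of all genes tested in astrocytes. The exception was Srebf2, at 183, 149 and 158 CPM in aged AAV-EGFP and 179, 184 and 167 CPM in aged AAV-B3GNT3. The mRNA of the regulator thus overlapped between groups, with a log2 fold change of 0.11 (−0.16 to 0.39, edgeR adjusted p = 0.673).

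**Figure D2:**
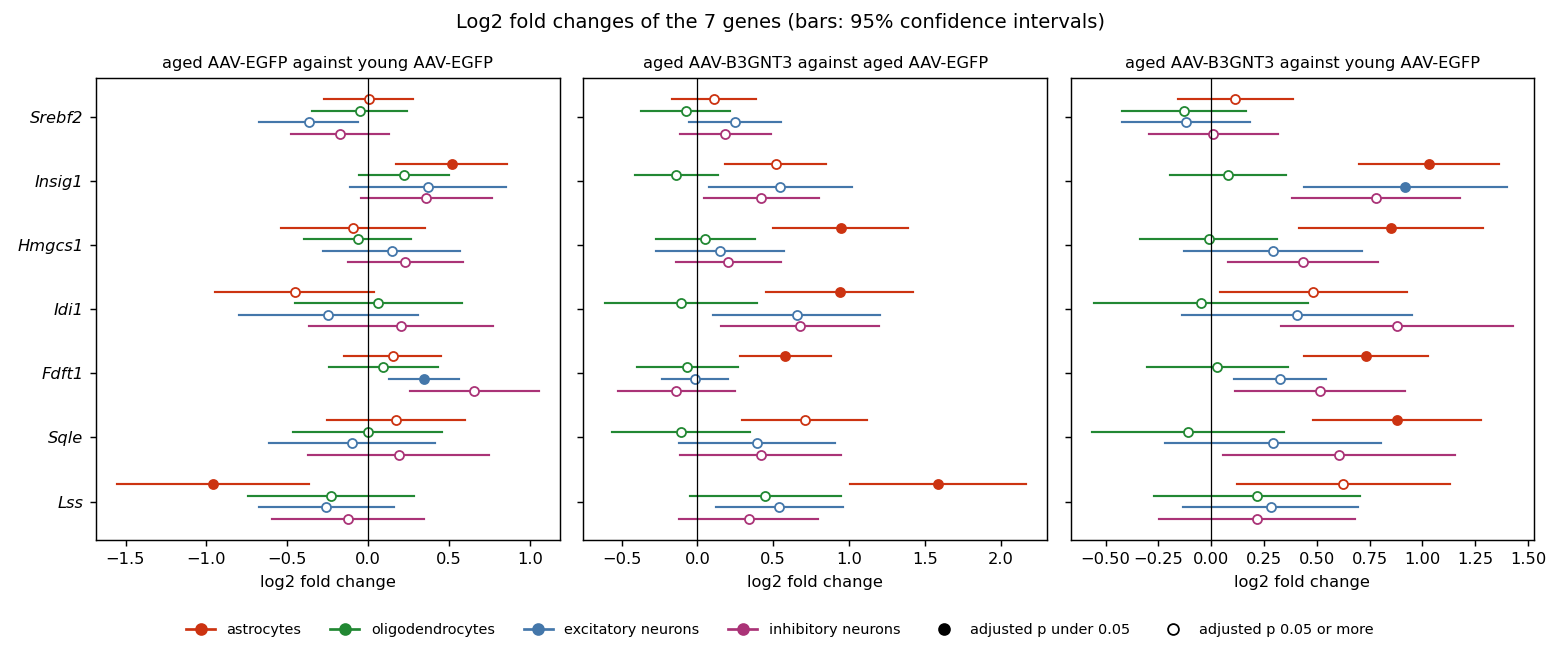
Log2 fold change of each of the 7 genes (points) with its 95% confidence interval (bars) in 4 cell classes, for the 3 comparisons between groups. Filled points passed an adjusted p of 0.05 in edgeR. In the middle panel the 4 filled points are Hmgcs1, Idi1, Fdft1 and Lss in astrocytes, and no filled point is an oligodendrocyte value in any panel.

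The comparison of aged AAV-EGFP with young AAV-EGFP asked what differed with age, which here includes supplier. It shares the aged AAV-EGFP mice with the comparison above. In astrocytes 2 of the 7 genes passed the test with age, where 11.8% of genes tested did. Lss stood at 25.03, 38.1 and 28.2 CPM in young astrocytes, all above the 3 aged AAV-EGFP mice, and it fell by 0.96 on the log2 scale (SE 0.28, edgeR adjusted p = 0.0378). Insig1 stood at 60.8, 60.8 and 46.3 CPM in young astrocytes, below the 3 aged AAV-EGFP mice, and it rose by a log2 fold change of 0.52 (SE 0.16, edgeR adjusted p = 0.0497). Of 12716 genes tested in astrocytes, 1956 lay higher and 1854 lower in each aged AAV-EGFP mouse than in each young mouse. The Insig1 value lay at the threshold, and it passed in 1 of 19 alternative settings, whereas Lss passed in 13 of 19. Lss did not pass with age without aged AAV-EGFP replicate 2 or 3 or without young AAV-EGFP replicate 2 or 3, with edgeR adjusted p-values of up to 0.160 when 1 mouse was left out. Insig1 passed without aged AAV-EGFP replicate 1 (edgeR adjusted p = 0.0328), and with any other mouse left out its adjusted p reached up to 0.222.

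The other 5 genes did not pass with age in astrocytes. Idi1 was at 29.3, 30.4 and 29.4 CPM in young mice, above each aged AAV-EGFP mouse, with a log2 fold change of −0.46 (−0.95 to 0.04, edgeR adjusted p = 0.210). Hmgcs1 was at 118, 134 and 108 CPM in young mice, Fdft1 at 120.0, 110.4 and 102, Sqle at 39.8, 34.5 and 32.8, and Srebf2 at 173, 160.4 and 156. Young and aged AAV-EGFP values overlapped for these 4 genes, whose log2 fold changes lay between −0.09 and 0.17.

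Aged AAV-B3GNT3 astrocytes were also set against young ones. Here Hmgcs1, Fdft1, Sqle and Insig1 were higher in aged AAV-B3GNT3, 4 of 7 where 2.69% of genes tested passed and 1.78% were higher. Insig1 rose by a log2 fold change of 1.03 (SE 0.16, edgeR adjusted p = 0.00433), Sqle by 0.88 (SE 0.19, adjusted p = 0.0244), Hmgcs1 by 0.85 (SE 0.20, adjusted p = 0.0405) and Fdft1 by 0.73 (SE 0.14, adjusted p = 0.0135). The Lss difference of 0.63 (0.12 to 1.13, edgeR adjusted p = 0.175) and the Idi1 difference of 0.48 (0.04 to 0.93, adjusted p = 0.235) did not pass, and replicate 1 of aged AAV-B3GNT3 lay within the range of the young mice for Idi1. Insig1 alone was called without aged AAV-B3GNT3 replicate 1 or 2 or without young AAV-EGFP replicate 2 or 3. Markers of 3 other cell types did not overlap between these groups of astrocytes. The 4 pericyte markers summed to between 134 and 173 CPM in young and between 206 and 244 CPM in aged AAV-B3GNT3 mice, the 8 inhibitory neuron markers to between 322 and 375 and between 438 and 498 CPM, and the 6 excitatory neuron markers to between 251 and 306 and between 196 and 229 CPM. Their part in the values of Hmgcs1, Fdft1, Sqle and Insig1 was not tested.

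The wider pathway was read from a list of 21 mevalonate and sterol enzymes, of which 20 could be tested in astrocytes and 5 are among the 7 genes. With AAV-B3GNT3 10 of the 20 rose, 0 fell and all 20 had a log2 fold change above 0, with a median of 0.78 against 0.01 over all genes tested, of which 1.2% rose. The 10 include Hmgcs1, Idi1, Fdft1 and Lss, described above, so this count is not separate from theirs. Cyp51, which removes a methyl group from lanosterol just after the LSS step, was at 49.97 ± 8.76 CPM in aged AAV-EGFP and 134 ± 29.5 CPM in aged AAV-B3GNT3 astrocytes (SD, n = 3), a log2 fold change of 1.43 (SE 0.19, edgeR adjusted p = 0.00422). Fdps, which makes farnesyl diphosphate between the IDI1 and FDFT1 steps, rose by 1.58 (SE 0.28, adjusted p = 0.0137). Hsd17b7 and Sc5d, which act late in the pathway, rose by 0.995 and 0.85.

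With age the same list gave 0 rises and 2 falls among 20 in astrocytes, Lss and Nsdhl, where 785 of 12716 genes tested fell and 713 rose, with a median log2 fold change of −0.16 against 0.03 over all genes tested. With 1 mouse left out it ran from −0.058 (young AAV-EGFP replicate 2) to −0.24 (aged AAV-EGFP replicate 3), with −0.082 for aged AAV-EGFP replicate 2, and 1 fall was called when any 1 of these 3 mice was left out, and 1 without young AAV-EGFP replicate 3. Nsdhl, a sterol dehydrogenase, fell by 1.47 on the log2 scale (SE 0.27, edgeR adjusted p = 0.00396). Of 10 genes for control of SREBP, 2 rose with age, Insig1 and Srebf1, the latter by 0.85 (SE 0.22), and 0 passed with AAV-B3GNT3. Npc2, which moves cholesterol out of lysosomes, rose with age by 0.63 (SE 0.17). Of 7 fatty acid synthesis genes, Acly, which makes cytosolic acetyl-CoA, rose with AAV-B3GNT3 by 1.24 (SE 0.25) and fell with age by 0.90, and Elovl6, a fatty acid elongase, fell with age by 1.202. None of 8 genes of the dolichol, prenylation and isoprenoid branch passed in astrocytes with age or with AAV-B3GNT3.

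**Figure D3:**
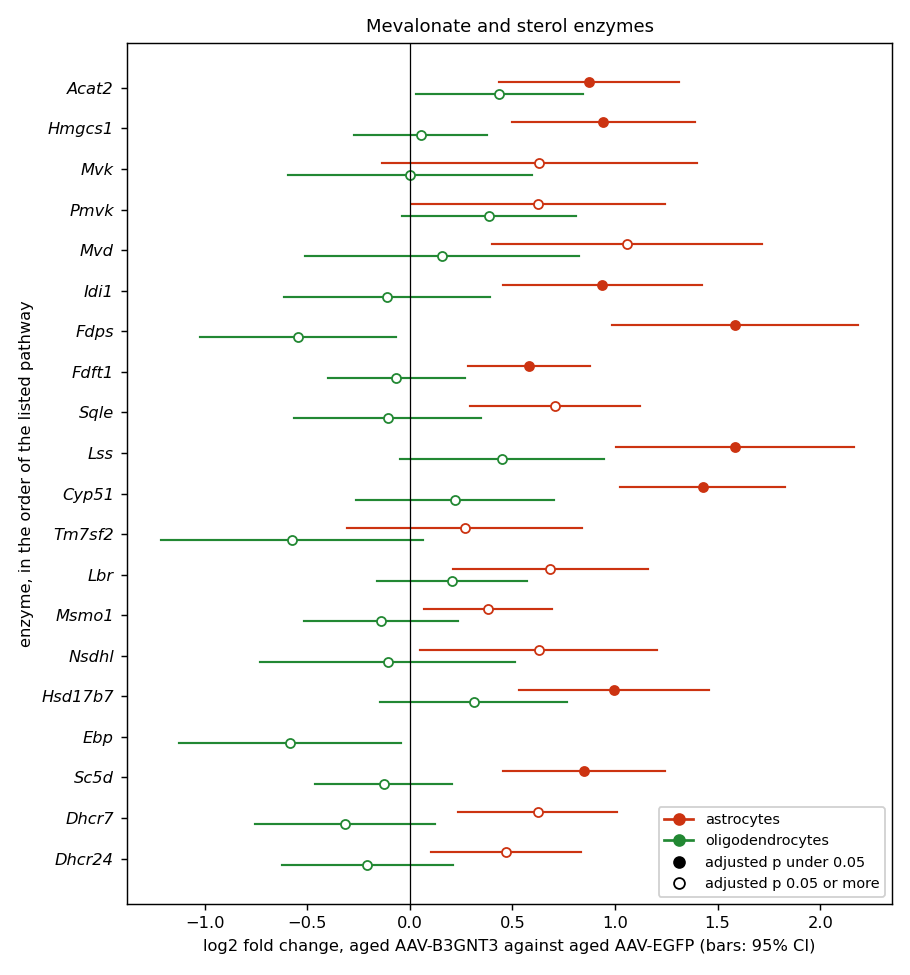
Log2 fold change with AAV-B3GNT3 in aged mice (points, with 95% confidence intervals as bars) for 20 of the 21 listed enzymes from acetyl-CoA to cholesterol, in astrocytes and oligodendrocytes. Filled points passed an adjusted p of 0.05 in edgeR, which 9 of those plotted did in astrocytes and 0 in oligodendrocytes. Ebp was not tested in astrocytes.

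These astrocyte calls rested on few mice. With 1 mouse left out, the number of the 7 genes called for AAV-B3GNT3 in astrocytes ran from 0 to 5. It was 0 without aged AAV-B3GNT3 replicate 2, the highest of its group for 7 of the 7 genes, and 0 without aged AAV-EGFP replicate 2, the lowest of its group for each gene but Lss. Over all genes tested, 17 of 12828 and 20 of 13206 passed in those 2 fits, against 440 with all mice. It was 2 without aged AAV-B3GNT3 replicate 1, where 32 of 12820 genes passed, and 2 without young AAV-EGFP replicate 2, which enters through the shared estimate of the spread. In each of these fits 6 of the 7 genes kept a raw p under 0.05. That count is given without the share of all genes at that raw p, so it does not set them apart. The log2 fold change of Lss lay between 1.26 and 1.69 in these fits. Its edgeR adjusted p was 0.0691 without aged AAV-B3GNT3 replicate 2 and 0.0651 without aged AAV-EGFP replicate 2. With only the 2 groups compared in the fit, Lss alone was called, where 230 of 11961 genes passed and 41 were higher. With no removal of doublets Idi1 and Lss were called, where 131 of 13240 genes passed and 25 were higher. With no filter on low counts the number rose to 6, with Sqle and Insig1 added, where 1252 of 22455 genes passed and 564 were higher. The enzyme list went from 10 called to 1 without replicate 2 of either aged group, and to 5 without aged AAV-B3GNT3 replicate 1 or with only the 2 groups compared, and it was 12 of 21 in DESeq2 and 14 of 21 with no filter.

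Aged AAV-B3GNT3 replicate 2 also differed in its nuclei. It gave 1431 astrocytes, against 600 and 850 in replicates 3 and 1 of its group, 625 to 784 in aged AAV-EGFP and 786 to 1425 in young mice. Over all its kept nuclei the median was 2966.5 UMIs and 1666 genes, the lowest of the libraries. The other libraries had medians of 3701 to 5270 UMIs and 1866 to 2304 genes. The part of this lower depth in the calls was not tested. Astrocytes formed 2 clusters at a finer resolution, and both were fitted on their own after the data were seen. In the cluster with more nuclei 5 of the 7 genes were called for AAV-B3GNT3, Hmgcs1, Idi1, Fdft1, Sqle and Lss, where 459 of 11635 genes tested passed. In the cluster with more Gfap, where 121 of 8996 genes passed, Lss alone was called, with a log2 fold change of 1.77 (SE 0.34, edgeR adjusted p = 0.0200). Sqle was at a log2 fold change of 0.27 there, against 0.89 in the cluster with more nuclei, and Insig1 at 0.83 against 0.40. The difference between the clusters was not tested.

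Markers of other cell types moved with these groups too. The 7 oligodendrocyte markers, none of them at 0 in any mouse, summed to between 265 and 387 CPM in aged AAV-EGFP astrocytes and to between 419 and 462 CPM in aged AAV-B3GNT3 astrocytes. The 7 astrocyte markers summed to between 14554 and 19042 CPM and to between 12984 and 15746 CPM. Their part in the rise of Hmgcs1, Idi1, Fdft1 and Lss was not tested. In young astrocytes the oligodendrocyte markers summed to between 445 and 611 CPM, above aged AAV-EGFP. The 4 pericyte markers summed to between 134 and 173 CPM in young and between 204 and 227 CPM in aged AAV-EGFP astrocytes, the 6 microglia markers to between 45.1 and 53.2 and between 57.7 and 73.4, and the 5 endothelial markers to between 13.4 and 18.9 and between 9.64 and 11.7. Their part in the age differences of Lss and Insig1 was not tested. Hmgcs1, Idi1, Fdft1 and Lss were each lower in oligodendrocytes than in astrocytes of the same mouse in 9 of 9 mice.

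**Figure D4:**
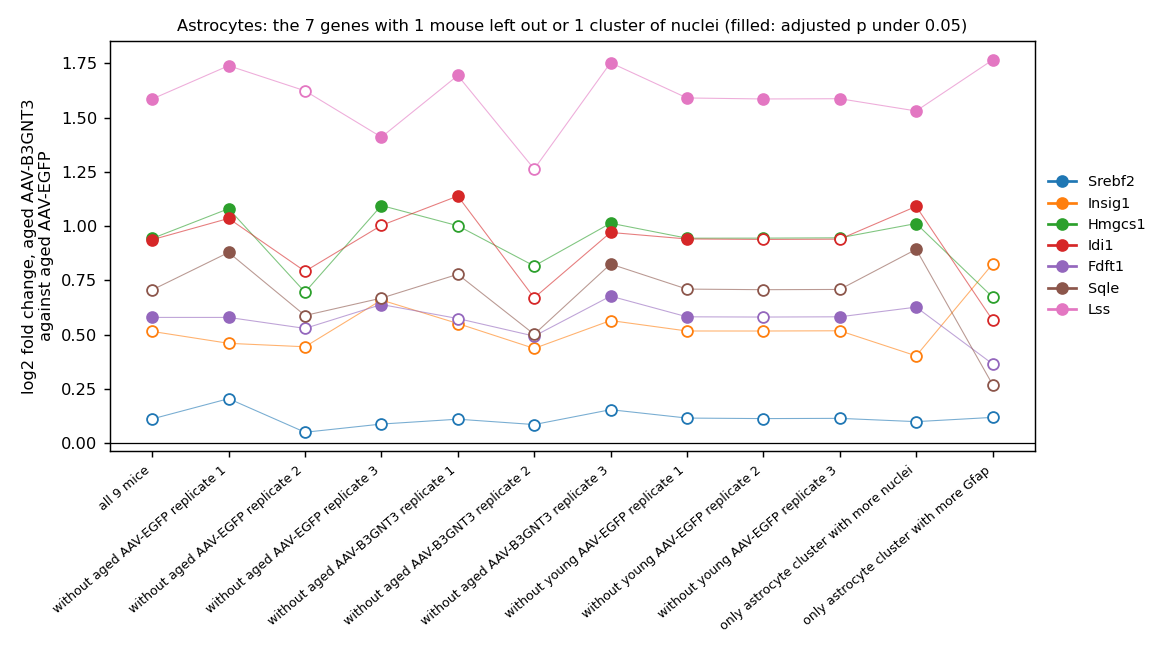
Log2 fold change of the 7 genes in astrocytes, aged AAV-B3GNT3 against aged AAV-EGFP, with all 9 mice, with each mouse left out in turn and in each of 2 astrocyte clusters. Lines join the values of a gene, and filled points passed an adjusted p of 0.05 in edgeR. All values lie above 0, and no point is filled without replicate 2 of either aged group.

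In oligodendrocytes 0 of the 7 genes passed in edgeR or in DESeq2 in any of the 3 comparisons, and 0 had a raw p under 0.05 in either tool. Over all genes tested in this class, 21.7% passed with age, 10.4% with AAV-B3GNT3 and 1.79% between aged AAV-B3GNT3 and young mice. These shares depended on which nuclei were counted as oligodendrocytes. With clusters drawn at resolution 1.0, 679, 0 and 22 of 13508 genes passed in the 3 comparisons, so that for AAV-B3GNT3 the 7 genes did not stand apart from the rest. At that resolution 1 oligodendrocyte cluster held 2245 and 2135 nuclei of aged AAV-EGFP replicates 2 and 3, 890 of replicate 1 and 17 to 282 of each other mouse. Its part in the oligodendrocyte values was not tested. Srebf2 stood at 127, 128 and 109 CPM in young AAV-EGFP, at 141, 107 and 104 in aged AAV-EGFP and at 114, 104 and 115 in aged AAV-B3GNT3. The ranges of the 3 groups overlapped, and the log2 fold change with AAV-B3GNT3 was −0.08 (−0.37 to 0.22). Insig1 stood at 39.9, 42.3 and 38.9 CPM in young mice and at 44.7, 49.1 and 47.4 CPM in aged AAV-EGFP mice. All 3 aged AAV-EGFP values were above the young ones, as for 19.9% of all genes tested, yet the log2 fold change of 0.22 (−0.06 to 0.50, edgeR adjusted p = 0.231) did not pass.

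Hmgcs1 in oligodendrocytes was at 44.9, 44.8 and 33.0 CPM in young, 43.3, 39.0 and 35.8 in aged AAV-EGFP and 38.4, 42.7 and 41.1 in aged AAV-B3GNT3 mice. These values overlapped, with log2 fold changes of −0.06 (−0.39 to 0.27) with age and 0.05 (−0.27 to 0.38) with AAV-B3GNT3. Lss was at 10.7, 8.64 and 10.5 CPM in aged AAV-EGFP and at 13.1, 16.7 and 11.1 CPM in aged AAV-B3GNT3 mice. The 3 mice with AAV-B3GNT3 were higher, as for 14.7% of all genes tested, and the log2 fold change of 0.45 (−0.05 to 0.95, edgeR adjusted p = 0.224) had an interval that reaches 0. The other 3 enzymes, Idi1, Fdft1 and Sqle, had log2 fold changes between −0.11 and 0.09 in these 2 comparisons, with intervals reaching from −0.61 to 0.58. The intervals leave room for changes of that size.

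None of the 21 enzymes passed in oligodendrocytes with age or with AAV-B3GNT3, in edgeR, and their median log2 fold changes were −0.0033 and −0.066. With age 2 enzymes were called lower without aged AAV-EGFP replicate 1, 1 higher without young AAV-EGFP replicate 2, 1 higher under the replicate block or with no doublet removal, and 1 lower with no filter on low counts. With AAV-B3GNT3 the median was 0.037 without aged AAV-EGFP replicate 1, 0.046 without replicate 2 and 0.048 without aged AAV-B3GNT3 replicate 3. Other listed genes did pass there at resolution 0.3, where 21.7% of all genes tested passed with age and 10.4% with AAV-B3GNT3. Of 10 genes for control of SREBP, 2 rose with age. Srebf1, which encodes the sister factor SREBP-1 and is known for fatty acid genes, rose with age by 0.79 (SE 0.20, edgeR adjusted p = 0.0147), and so did Mbtps2, which encodes a protease that cuts SREBPs, by 0.44. Scd2, a fatty acid desaturase, rose with age by 0.52 and fell with AAV-B3GNT3 by 0.74 on the log2 scale, and Acaca, which makes malonyl-CoA, rose with age by 0.48, while Elovl5, a fatty acid elongase, fell with age by 0.43. Of 9 uptake and turnover genes 1 fell with age, Soat1, which esterifies cholesterol, by 0.56. Mbtps2, Elovl5 and Soat1 were named after their values were seen. Of 8 myelin genes, Mog and Cnp rose with age by 0.71 and 0.97, and Mag, Mog and Cnp fell with AAV-B3GNT3 by 0.45, 0.59 and 0.84. At resolution 1.0 the calls of Scd2, Mag, Mog and Cnp with AAV-B3GNT3 were lost, since 0 of 13508 genes passed in edgeR there, with 2394 at a raw p under 0.05. Their log2 fold changes were then −0.64, −0.33, −0.48 and −0.74. With age Mog (0.71) and Cnp (0.96) passed at that resolution, while Srebf1 (0.80), Mbtps2 (0.40), Scd2 (0.51), Acaca (0.46), Elovl5 (−0.44) and Soat1 (−0.60) kept their sign and did not pass.

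Whether the change differed between classes was tested with limma on the difference in log2 CPM between oligodendrocytes and another class of the same mouse. For AAV-B3GNT3 the change in oligodendrocytes was below that in astrocytes by 1.06 on the log2 scale for Lss (SE 0.28), by 1.004 for Idi1 (SE 0.32) and by 0.94 for Hmgcs1 (SE 0.25). For Sqle it was 0.77 lower (SE 0.24), for Insig1 0.66 lower (SE 0.17) and for Fdft1 0.62 lower (SE 0.20). These 6 genes had raw p-values from 0.00315 to 0.0134, but 0 of 7 passed after adjustment over 11917 genes, where 0.42% of genes did, and the smallest limma adjusted p was 0.120. For Srebf2 the difference was −0.18 (SE 0.14). Against excitatory and inhibitory neurons 0 of 7 passed as well, where 3.8% and 2.18% of genes did, with 2 raw p-values under 0.05 in each, those of Insig1 and Idi1. The counts at a raw p under 0.05 are given without the share of all genes there, so they do not set these genes apart. A difference between astrocytes and oligodendrocytes in the response of these genes was thus not established by this test.

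Excitatory neurons had 1 gene called with age, where 14.2% of genes tested passed and 7.54% rose. This was Fdft1, at 29.8, 29.9 and 33.1 CPM in young and 38.4, 40.9 and 38.5 CPM in aged AAV-EGFP mice, which did not overlap. It rose by a log2 fold change of 0.34 (SE 0.10, edgeR adjusted p = 0.0406). In the same mice the 6 microglia markers summed to between 26.9 and 37.4 CPM in young and between 40.8 and 41.7 CPM in aged AAV-EGFP neurons, the 4 pericyte markers to between 3.70 and 4.76 and between 2.86 and 3.47 CPM, and the 6 markers of excitatory neurons themselves to between 1516 and 1682 and between 1318 and 1515 CPM. The 7 oligodendrocyte markers were also lower in the aged mice, at 114 to 191 CPM against 217 to 240.4 CPM. The part of these markers in the value of Fdft1 was not tested. Its aged AAV-B3GNT3 values of 40.1, 41.4 and 34.9 CPM overlapped those of aged AAV-EGFP. The call was lost without young AAV-EGFP replicate 1, 2 or 3, without aged AAV-EGFP replicate 2 or 3 and without aged AAV-B3GNT3 replicate 1, with log2 fold changes from 0.31 to 0.39 and edgeR adjusted p-values of up to 0.123. Srebf2 was at 89.2, 87.0 and 88.2 CPM in young and 84.9, 56.0 and 64.1 CPM in aged AAV-EGFP neurons, all lower with age, with a log2 fold change of −0.37 (−0.67 to −0.06, edgeR adjusted p = 0.0940). Of 16905 genes tested in this class, 3136 lay higher and 2935 lower in each aged AAV-EGFP mouse than in each young mouse.

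With AAV-B3GNT3 0 of the 7 genes passed in excitatory neurons in edgeR or DESeq2, where 2.54% of genes tested passed in edgeR. Idi1, Lss and Insig1 had a raw p under 0.05 in both, given here without the share of all genes at that raw p. Idi1 was at 4.66, 2.03 and 3.39 CPM in aged AAV-EGFP and 5.12, 5.29 and 5.25 CPM in aged AAV-B3GNT3 neurons, with a log2 fold change of 0.65 (0.10 to 1.204, edgeR adjusted p = 0.149). Aged AAV-EGFP replicate 1 stood above both other mice of its group for 6 of the 7 genes, for example at 45.1 CPM of Hmgcs1 against 22.5 and 28.7. Without this mouse 5 genes passed and were higher with AAV-B3GNT3, in a fit where 1109 of 17316 genes tested passed and 488 were higher. They were Idi1 with a log2 fold change of 0.96 (edgeR adjusted p = 0.0383), Lss with 0.78, Sqle with 0.76, Hmgcs1 with 0.47 and Srebf2 with 0.44. Srebf2 then also passed with age, at −0.56 (edgeR adjusted p = 0.00827). Without aged AAV-EGFP replicate 2, 0 of 17187 genes passed with AAV-B3GNT3. The 7 oligodendrocyte markers summed to between 114 and 191 CPM in aged AAV-EGFP, to between 197 and 244 CPM in aged AAV-B3GNT3 and to between 217 and 240.4 CPM in young excitatory neurons, and their part in these values was not tested.

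Against young mice, Insig1 was higher in aged AAV-B3GNT3 excitatory neurons, the 1 gene called where 3.74% of genes tested passed and 2.47% were higher. It stood at 8.30, 7.23 and 5.32 CPM in young and 15.5, 12.9 and 11.2 CPM in aged AAV-B3GNT3 mice. The groups did not overlap, as for 2460 of 16905 genes tested that were higher, and the log2 fold change was 0.92 (SE 0.22, edgeR adjusted p = 0.0420). The call was lost without any 1 of the aged AAV-B3GNT3 mice and without young AAV-EGFP replicate 2 or 3. Of the enzyme list, Acat2, a thiolase at the entry of the pathway, rose with age by 0.76 (SE 0.17, edgeR adjusted p = 0.0158) and Nsdhl fell with age by 1.15 (SE 0.34) in excitatory neurons, beside Fdft1. These 3 of 21 enzymes stand beside 14.2% of all genes. Without aged AAV-EGFP replicate 1 the list gave 2 rises and 5 falls, without replicate 2 it gave 1 rise and 0 falls, and without aged AAV-EGFP replicate 3 or young AAV-EGFP replicate 3 none were called. Leaving out aged AAV-B3GNT3 replicate 1 or young AAV-EGFP replicate 2 left 1 rise and 0 falls, and leaving out young AAV-EGFP replicate 1 left 1 of each. With AAV-B3GNT3 0 of the 21 enzymes passed, and their median log2 fold change was 0.26 against 0.01 over all genes tested. Without aged AAV-EGFP replicate 1, 8 of the 21 passed and the median was 0.48. It was 0.14 without aged AAV-EGFP replicate 2, with 0 called, and 0.40 without aged AAV-B3GNT3 replicate 3, with 1 called.

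In inhibitory neurons 0 of the 7 genes passed in edgeR in the 3 comparisons, where 3.77%, 0.608% and 0.629% of genes tested passed with age, with AAV-B3GNT3 and between aged AAV-B3GNT3 and young mice. Raw p-values were under 0.05 for 1 gene with age, for 2 with AAV-B3GNT3 and for 5 between aged AAV-B3GNT3 and young mice. These counts are given without the share of all genes at that raw p, so they do not set the 7 genes apart. DESeq2 called 1 gene with age and 0 in the other comparisons, given without the share of all genes that DESeq2 called. This gene was Fdft1, at 21.6, 22.9 and 15.9 CPM in young and 23.6, 35.9 and 35.9 CPM in aged AAV-EGFP mice, with an edgeR log2 fold change of 0.65 (0.26 to 1.05, adjusted p = 0.0620). It passed in edgeR without aged AAV-EGFP replicate 1, the lowest of its group. Insig1 stood at 7.52, 7.33 and 5.38 CPM in young, 8.95, 8.21 and 9.10 in aged AAV-EGFP and 13.2, 10.9 and 11.1 in aged AAV-B3GNT3 neurons. The 3 groups did not overlap, and the log2 fold change between the outer groups was 0.78 (0.38 to 1.18, edgeR adjusted p = 0.0761). Of 14314 genes tested here, 1971 were higher without overlap with age and 1541 with AAV-B3GNT3. Between aged AAV-B3GNT3 and young mice 1472 were. Idi1 rested on 17 to 55 UMIs per mouse here and had a log2 fold change of 0.68 with AAV-B3GNT3 (0.16 to 1.197, edgeR adjusted p = 0.171). Astrocyte markers summed to between 535 and 935 CPM in this class, where its own 8 markers summed to between 754 and 984 CPM. Oligodendrocyte markers summed to between 134 and 153 CPM in aged AAV-EGFP, between 191 and 199 CPM in aged AAV-B3GNT3 and between 159 and 237 CPM in young mice. The part of these markers in the values of the 7 genes was not tested.

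The 7 genes were also read together, as the mean of their log2 CPM after each gene was centred on its mean over the 9 mice. In astrocytes this mean was 0.36, 0.74 and 0.30 in aged AAV-B3GNT3, −0.12, −0.50 and −0.23 in aged AAV-EGFP and −0.16, −0.10 and −0.30 in young mice. In oligodendrocytes it stayed between −0.19 and 0.12 in the 9 mice. In excitatory neurons aged AAV-EGFP replicate 1, at 0.24, lay among the AAV-B3GNT3 mice at 0.28, 0.36 and 0.08, while replicates 2 and 3 were at −0.50 and −0.18. In inhibitory neurons the mean was 0.29, 0.17 and 0.33 in aged AAV-B3GNT3, above 0.14, −0.19 and −0.06 in aged AAV-EGFP and −0.12, −0.18 and −0.37 in young mice. The aged AAV-B3GNT3 mice thus had the highest means in astrocytes and in inhibitory neurons.

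**Figure D5:**
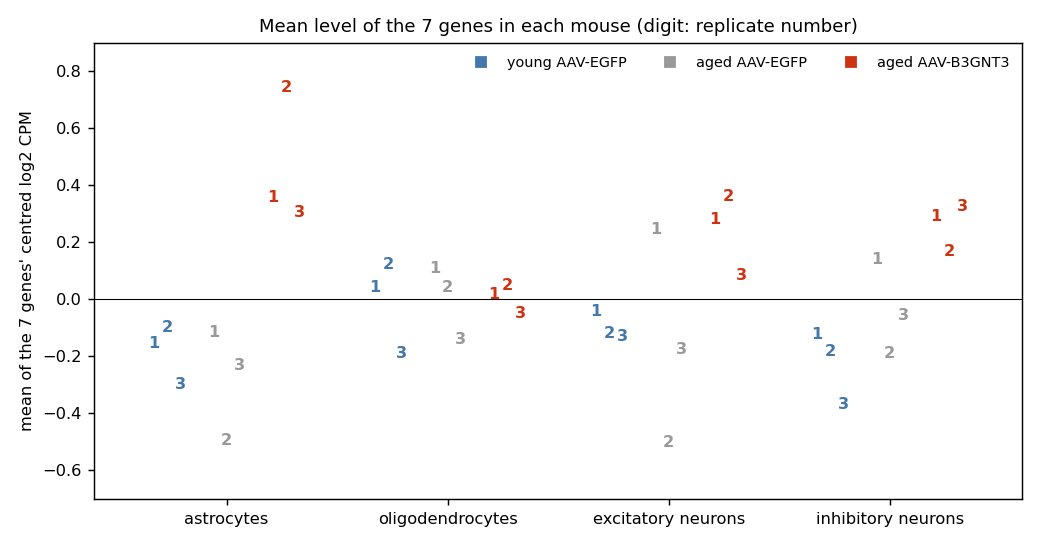
Mean of the centred log2 CPM of the 7 genes in each mouse, by cell class. Digits are replicate numbers and colours are groups. The aged AAV-B3GNT3 mice lie above the other 6 in astrocytes, between 0.30 and 0.74, and in inhibitory neurons, between 0.17 and 0.33, and the 9 mice lie between −0.19 and 0.12 in oligodendrocytes.

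The genes whose level followed this mean most closely over the 9 mice were taken from those with at least 50 UMIs per mouse on average. In astrocytes they included Cyp51 (Pearson's r = 0.98) and Fdps (0.95), of 7562 genes. In excitatory neurons they were Cyp51 (0.98), Tom1 (0.98) and Pccb (0.95), of 12799 genes, and in inhibitory neurons Prtg (0.95), Dusp16 (0.95) and Ccdc34 (0.94), of 10027. In oligodendrocytes the best were Dab2ip (0.90), Mpp7 (0.88) and Mtss1l (0.87), of 8707 genes. These r are the largest of many over 9 points that share libraries, depth and group, and they are given as a description.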

How the data were processed

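The authors deposited raw counts, whole UMIs per gene and nucleus, from Cell Ranger and the mouse genome mm10 (GRCm38). Version 4.0.0 is named per the labels and 7.2.0 in the matrix headers, and whether intronic reads were counted is not given in the sources used here. No removal of free RNA was applied. Barcodes passed with 200 to 5000 genes and a mitochondrial share of up to 10%, before removal of the 5.07 to 8.21% of barcodes per library with the highest simulated doublet score. Leiden clusters (2000 variable genes, 15 components, 20 neighbours, resolution 0.3) were named from marker lists. Counts were summed per mouse and class, genes were dropped by filterByExpr at a minimum count of 10, TMM factors were set, and models were fitted in edgeR 4.0.16 with all 9 mice. DESeq2 1.42.0 and limma 3.58.1 served as stated. The edgeR test was tried on simulated counts, with changes set in the aged AAV-EGFP mice. Changes of 0.5 on the log2 scale were recovered for 2.04% of changed genes in oligodendrocytes and 3% in astrocytes. In excitatory and inhibitory neurons 10.1% and 14% were recovered. At a change of 1 the shares were 38.8%, 47.9%, 60% and 71.4% in the same order. A gene that did not pass may therefore still have changed. Fewer genes were changed in the simulation than passed with age in each class, which makes its adjusted threshold stricter. The shares recovered may thus be too low for the comparison with age. The 7 genes, lists and the rule for named genes (the 7, up to 6 called list genes per class and comparison by adjusted p, and the 3 genes most alike per class) were chosen with earlier results of these data known. Some genes that the rule names are not reported here. Replicate numbers gave correlations of deviations between −0.27 and 0.29 for same-numbered mice and were not taken as pairs.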

Additional observations from a re-analysis of the deposited data

How the results depend on the processing

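With 1 mouse left out in turn, the number of the 7 genes called ran, for AAV-B3GNT3 against aged AAV-EGFP, from 0 to 5 in astrocytes (4 with all mice), 0 to 5 in excitatory neurons (0) and stayed 0 in oligodendrocytes and inhibitory neurons. For age it ran from 0 to 2 in astrocytes (2), 0 to 2 in excitatory neurons (1) and 0 to 1 in inhibitory neurons (0). For aged AAV-B3GNT3 against young it ran from 1 to 4 in astrocytes (4) and 0 to 1 in excitatory neurons (1). Where a group was left with 2 mice the spread was shared with the other groups. These ranges are given without the share of all genes called in each fit, so they do not set the 7 genes apart.

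Of the astrocyte genes called with age, 1 remained under each of DESeq2, no upper limit on genes, RLE size factors, clustering resolution 1.0, no filter on low counts, only the 2 groups compared and only the cluster with more nuclei, and 0 under no doublet removal and in the cluster with more Gfap. With AAV-B3GNT3 astrocytes gave 2 without doublet removal, 1 with only the 2 groups compared, 1 in the cluster with more Gfap, 6 with no filter and 5 with DESeq2 or in the cluster with more nuclei. Aged AAV-B3GNT3 against young gave 1 in the cluster with more Gfap. In excitatory neurons with age the count was 0 with no filter and 0 with only the 2 groups compared. In inhibitory neurons with age it was 1 with DESeq2, 1 with no filter and 1 without doublet removal, and against young 1 with no filter. The cause of these changes was not tested. Where the share of all genes called in a setting is not given above, these counts do not set the genes apart.

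With the replicate number as a replicate block, 2 genes were called in astrocytes with AAV-B3GNT3 (Hmgcs1 and Lss), 1 with age and 3 against young, and 0 in excitatory neurons with age. The share of all genes called under this block is not given here, so these counts do not set the genes apart. The mice share only a number: 11 of 18 pairs of a mouse and a group in oligodendrocytes, 8 in astrocytes, 7 in excitatory and 3 in inhibitory neurons correlated best with their own number.

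The sign changed for small log2 fold changes, none of which passed in any setting except Hmgcs1 in excitatory neurons with AAV-B3GNT3, which passed without aged AAV-EGFP replicate 1. With age Srebf2 in astrocytes became −0.027 (DESeq2), −0.014 (RLE size factors), −0.034 (no filter), −0.063 (no doublet removal), −0.029 (no upper limit), −0.032 (resolution 1.0), −0.015 (only the 2 groups) and −0.088 (cluster with more nuclei), and Sqle in oligodendrocytes 0.041 (resolution 1.0) and 0.0072 (only the 2 groups). With AAV-B3GNT3 Fdft1 became 0.0033 in oligodendrocytes (resolution 1.0) and 0.015 in excitatory neurons (no upper limit). With 1 mouse left out, values for age ran, in oligodendrocytes, from −0.19 to 0.0035 for Hmgcs1, −0.16 to 0.20 for Sqle, −0.043 to 0.25 for Fdft1, −0.10 to 0.29 for Idi1 and −0.21 to 0.031 for Srebf2. They ran, in astrocytes, from −0.24 to 0.15 for Hmgcs1, −0.001 to 0.29 for Sqle and −0.093 to 0.062 for Srebf2. In excitatory neurons they ran from −0.18 to 0.35 for Hmgcs1, −0.47 to 0.11 for Sqle and −0.55 to 0.026 for Idi1, and in inhibitory neurons from −0.12 to 0.38 for Sqle and −0.35 to 0.014 for Lss. For AAV-B3GNT3 they ran, in oligodendrocytes, from −0.015 to 0.13 for Hmgcs1, −0.32 to 0.048 for Sqle, −0.22 to 0.069 for Fdft1, −0.23 to 0.016 for Idi1 and −0.16 to 0.075 for Srebf2, and in excitatory neurons from −0.056 to 0.47 for Hmgcs1 and −0.069 to 0.053 for Fdft1. The shallowest value of Lss in astrocytes rested on 29 UMIs.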
